A study of Mus musculus with 6 samples.

Results

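The genes described here are 10 markers of the mesenchymal cells of the pancreas: Pdgfrb, Rgs5, Acta2, Tagln, Des, Cspg4, Vim, Dcn, Lum and Thy1. They were taken by symbol from the 34245 genes listed for whole islets, and all 10 were present. The islets came from C57BL/6J mice aged 5 weeks. The 3 KO animals carried the deleted form of the floxed Abca12 allele (tm1d), produced by Rip1-Cre, whose expression comes from a rat insulin promoter. The 3 HET controls carried the same Cre and were heterozygous for the floxed allele, so no library comes from an animal without Cre. The Cre is directed to beta cells, and the cells that express these markers are not its intended target. Poly(A) RNA was sequenced, with 1 library per animal code, and the comparison asks which islet transcripts differ when Abca12, a lipid transporter of the ABCA family, is lost.

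Islets are densely vascularised, and pericytes wrap their capillaries and can narrow them. Pancreatic stellate cells lie around acini, ducts and islets; when activated they make smooth muscle actin and collagen-rich matrix. Fibroblasts supply the matrix of the surrounding connective tissue. Pericyte recruitment depends on PDGF-B released by endothelial cells and sensed by the receptor PDGFR-beta. Contractile genes such as Acta2 and Tagln are classical targets of serum response factor, encoded by Srf, which binds CArG boxes in their promoters.

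The libraries held 27447026 to 35511008 reads in total, and 3 reads corresponded to 0.0845 to 0.109 RPM, the unit of level used throughout (reads scaled to the library total), a limit that covers counting error only. Abca12 itself was nearly silent, with 2 reads in KO 1 and 0 in the other 5 libraries, and the genotypes cannot be verified from this gene. The libraries also differ in ways the genotype does not give. KO 1, KO 2 and HET 1 have the 3 lowest animal codes in the labels, and KO 3, HET 2 and HET 3 the 3 highest. Of the 14238 genes that averaged 1 RPM or more, 48.1% had no overlap between the 3 low-code and the 3 high-code libraries. This division of the codes was known from earlier results to follow the main axis of variation, so the values on its sides are given without a test. Acinar markers summed to 4216, 15843 and 38463 RPM in the low-code libraries KO 1, KO 2 and HET 1, against 1133, 977 and 576 RPM in the high-code libraries KO 3, HET 2 and HET 3. KO 2 held 13659 reads of Xist together with 1481 reads of the Y-linked gene Ddx3y, so whether that library holds RNA of 1 mouse or more was not settled by these reads. KO 1 and HET 2 had 9612 and 10494 Xist reads and 0 reads of Ddx3y, a female pattern, and KO 3, HET 1 and HET 3 had at most 5 Xist reads and at least 1470 of Ddx3y, a male pattern. Sex thus varied within each genotype and on each code side, and its part in the results was not tested.

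Promoter windows of 300 bases are shown for 3 of the markers, because Acta2 and Rgs5 varied in the opposite direction to Cspg4 between the libraries. The windows run from 250 bases before to 50 bases after the RefSeq start of each gene, on its own strand, in build GRCm38.p6. Acta2 lies at chr19:34255324-34255623 (minus strand), Rgs5 at chr1:169655251-169655550 (plus strand) and Cspg4 at chr9:56864854-56865153 (plus strand). Capitals mark every match, on either strand, to the motifs searched.
Acta2: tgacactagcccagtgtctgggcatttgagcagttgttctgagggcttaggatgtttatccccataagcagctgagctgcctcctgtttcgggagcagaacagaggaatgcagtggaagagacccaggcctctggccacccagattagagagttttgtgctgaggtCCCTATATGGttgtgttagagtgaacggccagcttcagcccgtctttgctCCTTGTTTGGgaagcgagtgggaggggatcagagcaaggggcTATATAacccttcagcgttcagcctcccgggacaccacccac
Rgs5: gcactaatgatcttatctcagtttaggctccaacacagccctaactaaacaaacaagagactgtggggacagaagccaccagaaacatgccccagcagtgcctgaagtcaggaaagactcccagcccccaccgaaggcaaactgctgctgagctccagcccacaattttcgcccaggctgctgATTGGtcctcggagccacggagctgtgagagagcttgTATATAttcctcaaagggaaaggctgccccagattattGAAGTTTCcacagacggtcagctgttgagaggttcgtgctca
Cspg4: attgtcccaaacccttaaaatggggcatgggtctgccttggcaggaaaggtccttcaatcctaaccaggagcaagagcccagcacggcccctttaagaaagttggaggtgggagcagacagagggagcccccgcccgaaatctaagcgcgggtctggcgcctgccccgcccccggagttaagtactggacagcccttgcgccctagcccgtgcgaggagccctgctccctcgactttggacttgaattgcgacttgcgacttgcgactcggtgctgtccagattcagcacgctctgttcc

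The motifs searched were the CArG box with at most 1 G or C among its 6 inner bases, the core promoter sequence TATAAA, its variant form TATATA, the box bound by nuclear factor Y (CCAAT), and the paired heat shock element GAANNTTC. The Acta2 window held 2 CArG boxes of this kind, CCCTATATGG and CCTTGTTTGG, and 1 TATATA. At least 1 such box was present in 9.98% of the 32851 promoter windows of this length, and at least 2 in 0.822%. The Rgs5 window held no CArG box of this kind but had 1 TATATA, 1 CCAAT (on the other strand) and 1 GAANNTTC, found in 5.67%, 37.4% and 7.86% of windows. No searched motif occurred in the Cspg4 window; TATAAA, absent from all 3 windows, was found in 13.6% of all windows. The window of Des, not shown, also held no searched motif. Des was higher in the low-code libraries as Acta2 and Rgs5 were, but by a gap within counting error (47 reads in KO 2 against 42 in KO 3). The Vim window, also not shown, held 1 TATAAA and 2 CCAAT. Whether motifs in these few windows go with the direction in which the markers varied was not tested. A match to these letters is a description of the sequence and does not show binding.

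Per length, Rgs5 had the highest mean level of the 10 markers and Lum the lowest, but the order differed between libraries. Rgs5 was first in the 3 low-code libraries, while in each of the 3 high-code libraries both Vim and Pdgfrb were above it. Lum was lowest in KO 1, HET 2 and HET 3, Cspg4 in KO 2 and HET 1, and Dcn in KO 3. Mean levels per kilobase of exon over the 6 libraries were 7.75 RPM per kb for Rgs5, 4.53 for Vim, 1.94 for Pdgfrb, 1.64 for Tagln, 1.06 for Thy1, 0.492 for Acta2, 0.416 for Des, 0.325 for Dcn, 0.288 for Cspg4 and 0.191 for Lum. Each neighbouring pair in this order had overlapping ranges over the libraries. Compared within the same library, Vim was above Pdgfrb and Thy1 above Acta2 in every library, while the order of each other neighbouring pair differed between libraries. Mean levels over all libraries, not scaled to length, reached 1 RPM for 9 of the 10 markers, which then entered the test. Acta2 was just inside this limit at 1.08 RPM and Lum was outside it at 0.469 RPM.

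**Figure D1:**
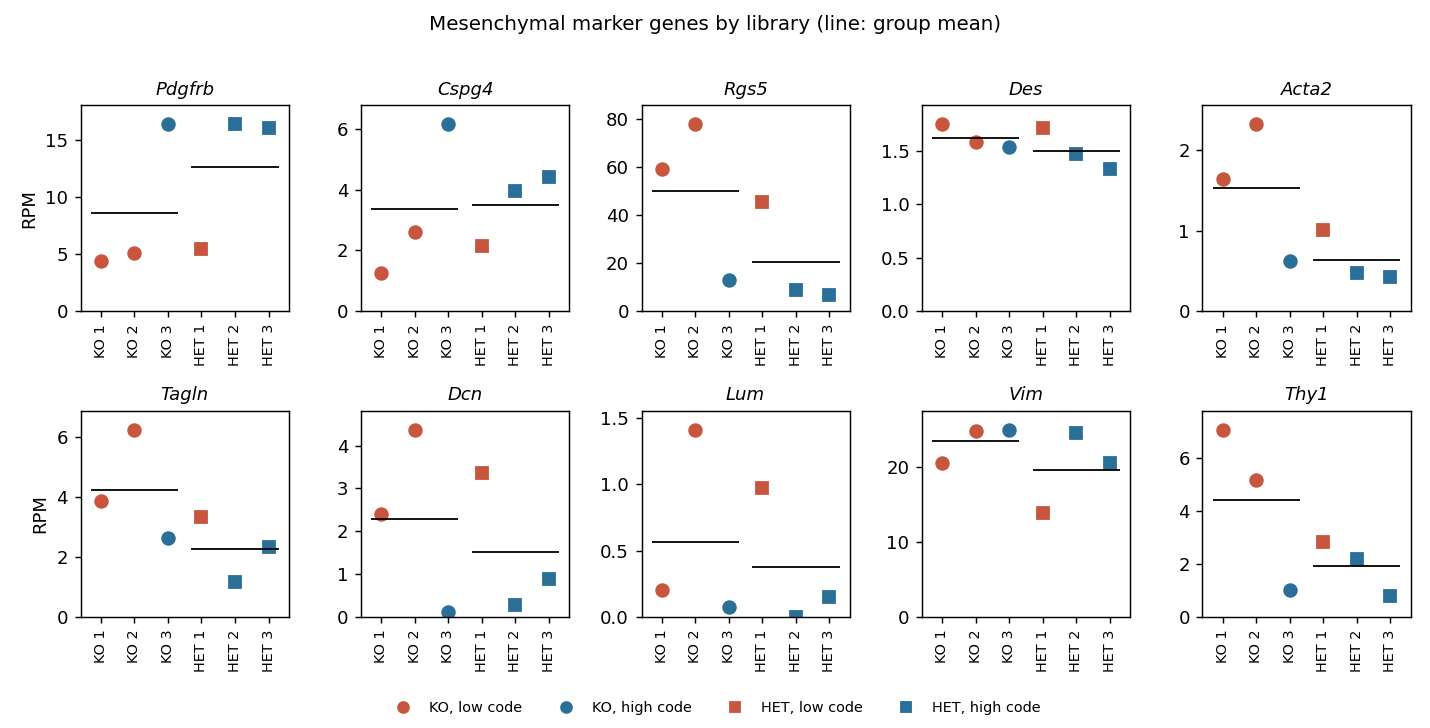
RPM (vertical axes, linear from 0) of the 10 markers in each library, with KO 1 to 3 left of HET 1 to 3; circles are KO, squares are HET, red marks low and blue high animal codes, and lines are group means. Rgs5 is at 45.4 RPM or more in the 3 red libraries and at 13.1 RPM or less in the 3 blue ones, while Pdgfrb is at 5.43 RPM or less in the red and 16.1 RPM or more in the blue ones.

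No difference between KO and HET islets was detected beyond the spread between animals in the 9 markers tested. Each group held libraries from both code sides, so that spread includes the division by animal code. The intervals were wide, for Rgs5 from -0.85 to 3.65 on the log2 scale. In limma's moderated test on log2(RPM + 1), with Benjamini-Hochberg adjustment over all 14238 genes, 0 of the 9 markers tested passed 0.05, against 0% of all genes. At an unadjusted p under 0.05 the counts were 0 of 9 markers and 250 genes (1.76%). Limma-voom on the recovered reads also called 0 markers and 0 genes, with 254 genes at an unadjusted p under 0.05. Mean RPM was higher in KO for 8 markers and lower for 2, Pdgfrb and Cspg4. With no filter on low values, the median log2 difference of the 10 markers was 0.29, beside 0.02 for all 22694 genes with reads. The 3 KO and 3 HET libraries overlapped for all 10 markers; they did not overlap for 5.74% of all genes tested. Without KO 3, the high-code KO library, they did not overlap for 5 markers (Rgs5, Acta2, Tagln and Thy1 higher, Pdgfrb lower in KO), against 23.4% of genes. Without HET 1, the low-code HET library with the most acinar RNA, they did not overlap for 4 (Rgs5, Acta2, Tagln and Des, all higher in KO), against 33.1% of genes. Without KO 1 this held for Vim alone, against 9.58% of genes, and without KO 2, HET 2 or HET 3 for 0 markers, against 10.9%, 9.03% and 9.79% of genes. At an unadjusted limma p under 0.05 there were 5 markers without KO 3 (6.59% of genes) and 2 without HET 1 (12% of genes). There were 0 without KO 1 (0.584%), KO 2 (0.806%), HET 2 (0.729%) or HET 3 (0.561%), and 0 markers passed the adjusted threshold in any of these fits.

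The genes of the pericyte surface proteins PDGFR-beta and NG2 were lower in every low-code library, where 7 of the other 8 markers were higher and Vim overlapped. Pdgfrb (ENSMUSG00000024620.11, chromosome 18, 61045150 to 61085061, GRCm38), the receptor for PDGF-B, was at 4.39, 5.11 and 16.4 RPM in KO 1 to 3, against 5.43, 16.4 and 16.1 RPM in HET 1 to 3. The libraries of both genotypes lay at the same 2 levels, with KO 1, KO 2 and HET 1 low and the other 3 libraries about 3.28-fold higher on average. KO libraries averaged 8.63 ± 6.73 RPM and HET libraries 12.7 ± 6.25 RPM (SD, n = 3 each). On the log2 scale KO minus HET was -0.58, with a 95% interval of -1.89 to 0.73. It was -1.11 without KO 3 and -1.06 without HET 1, and between -0.36 and -0.27 without any 1 of the other 4 libraries; with the block for the code side it was -0.08. Within the high-code libraries alone KO 3 differed from the mean of HET 2 and HET 3 by 0.01 on the log2 scale, and within the low-code libraries KO 1 and KO 2 differed from HET 1 by -0.16.

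Cspg4 (ENSMUSG00000032911.6, chromosome 9, 56865033 to 56899870), which encodes the proteoglycan NG2 of pericytes, had 1.27, 2.62 and 6.16 RPM in KO 1 to 3 and 2.13, 3.97 and 4.43 RPM in HET 1 to 3. Its 3 high-code libraries lay above its 3 low-code libraries, as for Pdgfrb, with KO libraries at both ends of the range. The KO minus HET log2 difference was -0.18 (95% interval -1.17 to 0.82) and turned to 0.17 with a block for the animal code side.

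Rgs5 (ENSMUSG00000026678.10, chromosome 1, 169655501 to 169695813), a regulator of G protein signalling that marks pericytes, ran the other way and over a wider range. It was at 59.1, 77.9 and 13.1 RPM in KO 1 to 3, against 45.4, 8.95 and 6.88 RPM in HET 1 to 3. The low-code libraries averaged 6.30 times the high-code ones, and on each side every KO library was above every HET library. KO means were 1.51 times the HET value among the low codes and 1.66 times among the high codes. Over all libraries KO averaged 50.03 ± 33.3 RPM and HET 20.4 ± 21.7 RPM (SD, n = 3 each). The log2 difference was 1.40 (95% interval -0.85 to 3.65; limma adjusted p = 0.9998). It was 2.16 without KO 3, 2.20 without HET 1, 0.92 without KO 2 and 0.92 without HET 3. With a block for the animal code side it was 0.62 (95% interval 0.26 to 0.98), with an unadjusted p of 0.0034 and an adjusted p of 0.756.

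Rgs5 and Pdgfrb, both pericyte markers, thus ran in opposite directions between libraries. Per length, the ratio of Rgs5 to Pdgfrb was 16.2, 18.4 and 0.964 in KO 1 to 3, against 10.1, 0.657 and 0.515 in HET 1 to 3. The highest ratio was 35.7 times the lowest, and within each code side the KO ratios were above the HET ratios. The ratio of Pdgfrb to Cspg4 per length, by contrast, stayed between 4.24 and 9.01, at 7.53, 4.24 and 5.80 in KO 1 to 3, against 5.54, 9.01 and 7.91 in HET 1 to 3. In whole islets, fewer cells of a type and less RNA per cell cannot be told apart.

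**Figure D2:**
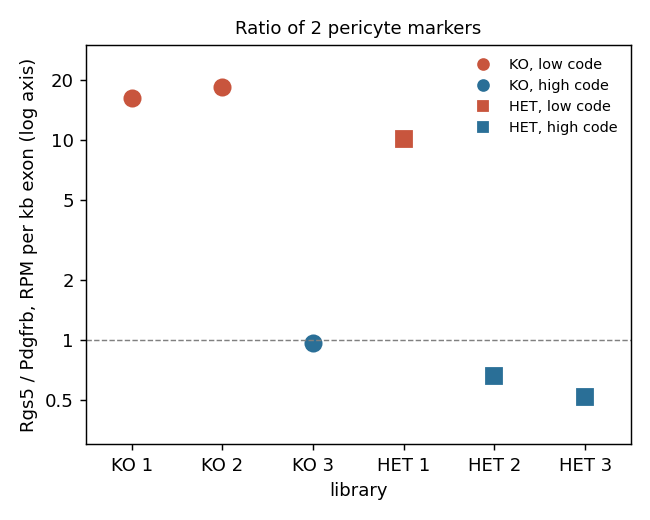
Ratio of Rgs5 to Pdgfrb in RPM per kilobase of exon (vertical axis, log scale) in each library, KO left of HET; red marks low and blue high animal codes, circles KO and squares HET, and the dashed line is a ratio of 1. The 3 low-code libraries lie between 10.1 and 18.4 and the 3 high-code libraries between 0.515 and 0.964.

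Des (ENSMUSG00000026208.9, chromosome 1, 75360329 to 75368579) encodes desmin, an intermediate filament protein of muscle cells, pericytes and stellate cells, and was the steadiest of the 10 markers. It was at 1.75, 1.58 and 1.53 RPM in KO 1 to 3, against 1.71, 1.46 and 1.33 RPM in HET 1 to 3, from 42 to 53 reads per library. Its SD of log2(RPM + 1) over the 6 libraries was 0.0892, above that of 1.2% of the 500 genes nearest to it in mean level. The corresponding percentile was 99.4 for Rgs5 and 97.2 for Pdgfrb. The KO minus HET log2 difference of Des was 0.07 (95% interval -0.35 to 0.49).

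The contractile genes Acta2 and Tagln were higher in the low-code libraries and, on each side, higher in KO than in HET, in part by gaps within counting error. Acta2 (ENSMUSG00000035783.9, chromosome 19, 34241090 to 34255336), which encodes smooth muscle actin, was at 1.64, 2.32 and 0.619 RPM in KO 1 to 3 and 1.00, 0.479 and 0.422 RPM in HET 1 to 3. These levels rest on few reads, 17 to 69 in the KO and 14 to 31 in the HET libraries. KO 3 and HET 2 had 17 reads each, so KO 3 was above HET 2 in RPM only through its smaller library total. The log2 difference was 0.59 (95% interval -0.12 to 1.29; limma unadjusted p = 0.0924, adjusted p = 0.9998), and 0.36 with the block for the code side.

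Tagln (ENSMUSG00000032085.5, chromosome 9, 45929619 to 45936058), encoding the actin-binding protein SM22, was at 3.87, 6.25 and 2.62 RPM in KO 1 to 3 and 3.33, 1.15 and 2.32 RPM in HET 1 to 3. Its groups overlapped, since KO 3 lay below HET 1. Within each code side KO was above HET by a gap within counting error. The reads were 113 in KO 1 against 103 in HET 1, and 72 in KO 3 against 77 in HET 3. The log2 difference was 0.68 (95% interval -0.11 to 1.48; limma unadjusted p = 0.0830, adjusted p = 0.9998). It was 0.45 with the block for the code side, 0.42 without KO 2 and 0.41 without HET 2. Exons of Tagln share 108 bases with Pcsk7 (18.9 RPM) and 1241 bases with the transcript Gm48529, both on the opposite strand, and reads in these overlaps cannot be assigned without strand information.

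Dcn and Lum, neighbouring genes for 2 small leucine-rich proteoglycans that bind collagen fibrils, were close to absent in some libraries. Dcn (ENSMUSG00000019929.16, chromosome 10, 97479609 to 97518143), encoding decorin, was at 2.40, 4.37 and 0.109 RPM in KO 1 to 3 and 3.36, 0.282 and 0.875 RPM in HET 1 to 3. KO 3 was the lowest of the 6 libraries with 3 reads, and KO 2 the highest with 130. Lum (ENSMUSG00000036446.5, chromosome 10, 97565128 to 97572703), encoding lumican, was covered by 6, 42 and 2 reads in KO 1 to 3, against 30, 0 and 5 reads in HET 1 to 3. Both were higher in every low-code library than in every high-code one, though for Lum KO 1 with 6 reads and HET 3 with 5 lay within counting error. The KO minus HET log2 differences were 0.32 (95% interval -1.25 to 1.89) for Dcn and, with no filter, 0.15 (-0.71 to 1.02) for Lum. For Dcn the sign turned with a block for the code side (-0.26), without KO 2 (-0.17) and without HET 2 (-0.07).

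Vim and Thy1 mark mesenchymal cells less strictly. Vim (ENSMUSG00000026728.9, chromosome 2, 13573927 to 13582826) encodes vimentin, a filament protein that endothelial cells and macrophages also make. It was at 20.5, 24.7 and 24.9 RPM in KO 1 to 3 and 13.8, 24.4 and 20.5 RPM in HET 1 to 3. It was the only one of the 10 markers whose low-code and high-code libraries overlapped, and HET 1 stood lowest. The log2 difference was 0.27 (95% interval -0.26 to 0.80), and 0.40 (0.03 to 0.78; unadjusted p = 0.0359, adjusted p = 0.922) with the block for the code side. Without HET 1 it was 0.05, and without HET 2 it was 0.44.

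Thy1 (ENSMUSG00000032011.5, chromosome 9, 44043384 to 44048579), a surface protein of fibroblasts that T cells and neurons also carry, was at 7.06, 5.18 and 1.02 RPM in KO 1 to 3 and 2.81, 2.17 and 0.784 RPM in HET 1 to 3. KO 1 and KO 2 were above the other 4 libraries. The log2 difference was 0.74 (95% interval -0.53 to 2.01). Of 9 lymphocyte markers, the T cell genes Cd3d, Cd3e and Cd8a had 0 reads in all 6 libraries, and the sum of all 9 ran from 1.93 to 4.66 RPM over the KO libraries, against 1.97 to 3.04 RPM over the HET libraries. The B cell gene Cd79a, the only one of the 9 that was tested, was at 4.15, 3.33 and 1.57 RPM in KO 1 to 3 and 1.45, 1.80 and 1.93 RPM in HET 1 to 3. Cd79a was highest in KO 1 and KO 2, as Thy1 was, but it marks B cells and not the T cells named above. The part of other cells in the Thy1 values was not tested. The Thy1 difference was 0.33 with the block for the code side, and leaving out 1 library gave 0.34 (without KO 1) to 1.34 (without KO 3).

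**Figure D3:**
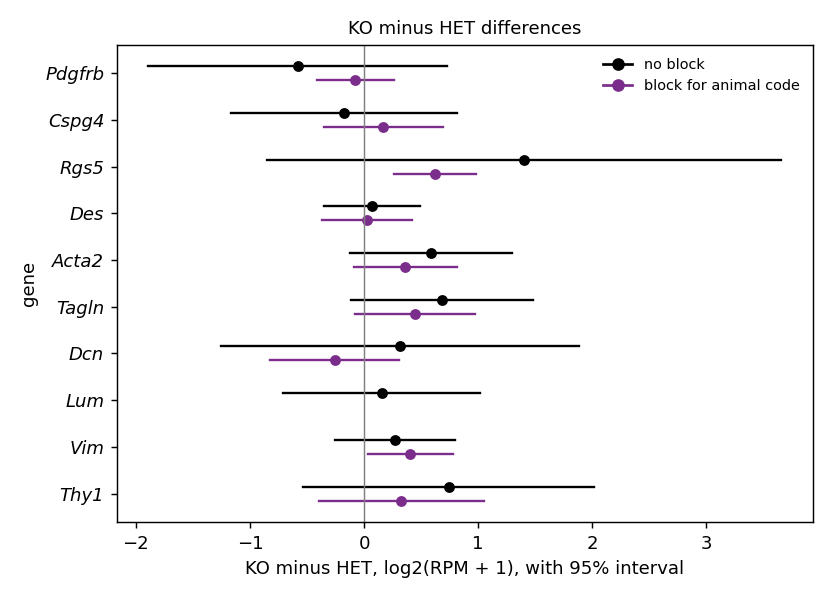
KO minus HET difference of each marker on the log2(RPM + 1) scale (horizontal axis) with its 95% interval from limma; black is the fit without and purple the fit with a block for animal code side (Lum, below the filter, has the black value only, from the fit with no filter). All black intervals include 0, and among the purple ones those of Rgs5 and Vim do not, with adjusted p of 0.756 and 0.922.

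Across the markers, library values followed the animal code side more closely than the genotype. The low-code and high-code libraries did not overlap for 9 of the 10 markers, 7 of them higher and 2 lower in the low codes. Among the 9 markers tested this held for 8, and among all genes tested for 48.1%, with 16.8% higher and 31.3% lower. The count over all 10 markers was 9 or 10 when any 1 library was left out. Some gaps between the sides were within or near counting error. Lum had 6 reads in KO 1 against 5 in HET 3, and Des 47 in KO 2 against 42 in KO 3. Acta2 had 31 reads in HET 1 against 17 in KO 3, and Tagln 103 in HET 1 against 72 in KO 3. Thy1 had 87 reads in HET 1 against 77 in HET 2. Among the 9 markers with reads in every library, Dcn and Rgs5 had the widest ranges, the highest library being 39.99 and 11.3 times the lowest. Acinar markers moved with the same side, with 17 of 18 tested markers higher in every low-code library, and their part in these values was not tested. Endothelial markers were divided, with 3 of 12 higher and 3 lower in the low codes, and their sum ran from 262 to 330 RPM in the low codes and from 286 to 326 RPM in the high codes. Of 8 macrophage markers, 4 were higher and 2 lower in the low codes. Msln, the mesothelial marker mesothelin, was at 14.9, 25.8 and 62.5 RPM in KO 1 to 3 and 24.3, 60.9 and 53.8 RPM in HET 1 to 3, lower in every low-code library as Pdgfrb was. Krt19, the other mesothelial marker tested, which duct cells also express, was at 16.8, 26.8 and 10.8 RPM in KO 1 to 3 and 18.0, 7.24 and 14.4 RPM in HET 1 to 3, higher in every low-code library. Schwann cell markers summed to 10.8, 27.2 and 7.72 RPM in KO 1 to 3 and 8.79, 6.53 and 7.63 RPM in HET 1 to 3. The part of these other cells in the values of the 10 markers was not tested.

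**Figure D4:**
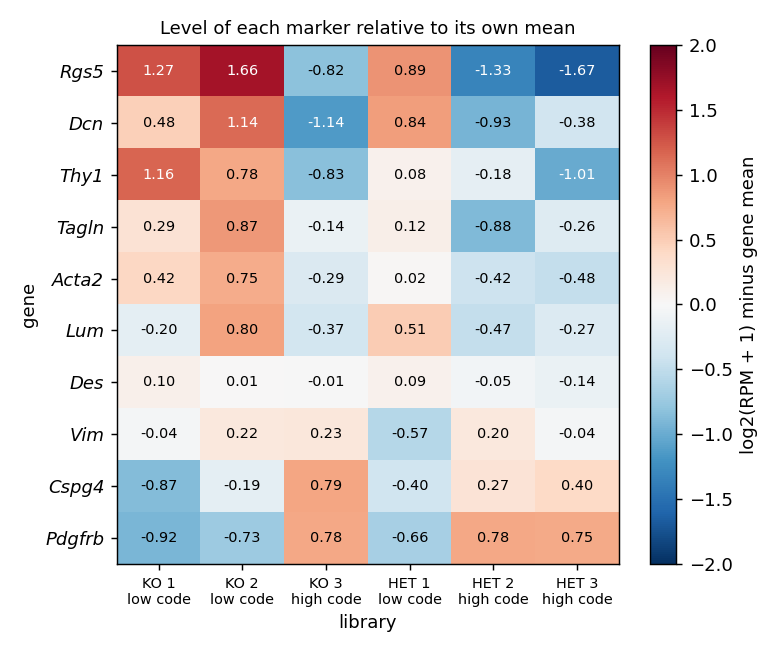
Level of each marker relative to its own mean over the 6 libraries, in log2(RPM + 1) (colour and printed value), with libraries in columns, KO left of HET, and genes in rows. Rgs5 is above its mean in KO 1, KO 2 and HET 1 and below it in the other 3 libraries, and Pdgfrb shows the reverse.

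Within each code side the KO libraries were compared with the HET libraries on that side. Every KO library was above every HET library on both sides for 4 of the 10 markers, Rgs5, Acta2, Tagln and Vim, and below on both sides for 0. Among all genes tested the shares were 15.6% above and 6.57% below. These counts rest on 2 KO libraries against HET 1 among the low codes and on KO 3 against 2 HET libraries among the high codes. Some margins were narrow: KO 3 and HET 2 had 17 reads of Acta2 each, and 24.9 and 24.4 RPM of Vim. For Tagln the margin was within counting error on each side. It had 113 reads in KO 1 against 103 in HET 1, and 72 in KO 3 against 77 in HET 3. With the block for the code side, limma gave 2 of the 9 tested markers, Rgs5 and Vim, an unadjusted p under 0.05, against 767 genes (5.39%), and 0 markers and 0 genes an adjusted p under 0.05. With the log10 share of acinar reads as a covariate instead, 3 of the 9 tested markers had an unadjusted limma p under 0.05, against 998 genes (7.01%). They were Rgs5 (adjusted p = 0.586), Tagln (adjusted p = 0.689) and Acta2 (adjusted p = 0.710 in limma), and 0 markers and 0 genes passed after adjustment.

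The summed level of the 10 markers was 102, 131 and 66.5 RPM in KO 1 to 3 and 80.0, 59.3 and 53.8 RPM in HET 1 to 3. Most of the variation in this sum was Rgs5, which made up 57.9%, 59.3% and 19.7% of it in KO 1 to 3, against 56.8%, 15.1% and 12.8% in HET 1 to 3. Without Rgs5 the KO libraries summed to 49.99 ± 6.03 RPM and the HET libraries to 44.0 ± 8.30 RPM (SD, n = 3 each).

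Other genes of pericytes and smooth muscle were divided, some following Rgs5 and others Pdgfrb. Of 22 such genes found in the files, 17 were tested and 0 passed between KO and HET; 12 had higher and 5 lower means in KO, with a median log2 difference of 0.18 beside 0.01 for all genes tested. Between the code sides, 7 of the 17 were higher and 3 lower in the low codes and 7 overlapped, beside 48.1% of all genes without overlap. Notch3, a receptor needed by mural cells, was at 8.46, 11.3 and 2.44 RPM in KO 1 to 3 and 7.31, 3.49 and 3.50 RPM in HET 1 to 3. Mylk, encoding myosin light chain kinase, was at 7.78, 12.7 and 2.00 RPM in KO 1 to 3 and 15.5, 1.94 and 1.27 RPM in HET 1 to 3. Both thus followed Rgs5, although Mylk was highest in a HET library, HET 1. Kcnj8, the pore subunit of the vascular ATP-sensitive potassium channel, followed Pdgfrb with 0.891, 0.168 and 1.38 RPM in KO 1 to 3 and 0.291, 2.11 and 1.99 RPM in HET 1 to 3.

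Tpm2, which encodes beta-tropomyosin of contractile filaments, had the lowest p of the pericyte and smooth muscle list. It was at 1.68, 1.65 and 2.81 RPM in KO 1 to 3 and 0.550, 0.507 and 0.814 RPM in HET 1 to 3. All 3 KO libraries lay above all 3 HET libraries, and the log2 difference was 0.89 (95% interval 0.37 to 1.41; limma unadjusted p = 0.00438, adjusted p = 0.9998). Anpep, an aminopeptidase of pericytes and other cells, was at 45.2, 48.1 and 47.1 RPM in KO 1 to 3 and 34.6, 38.7 and 32.1 RPM in HET 1 to 3, also without overlap. Its log2 difference was 0.41 (95% interval 0.06 to 0.76; unadjusted p = 0.0282, adjusted p = 0.9998). These were the 2 genes of 17 whose groups did not overlap, against 5.74% of all genes.

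Other fibroblast and stellate genes also went both ways between the code sides. Of 28 in the files 17 were tested and 0 passed between KO and HET, with 12 higher and 5 lower in KO and a median log2 difference of 0.25. Between the code sides 5 were higher and 3 lower in the low codes and 9 overlapped, which is near the share over all genes (48.1% without overlap). Postn, encoding the matrix protein periostin, was at 2.43, 7.09 and 1.13 RPM in KO 1 to 3 and 4.40, 0.957 and 1.36 RPM in HET 1 to 3, a pattern close to that of Dcn. Fn1, encoding fibronectin, was at 3.19, 10.7 and 16.8 RPM in KO 1 to 3 and 4.43, 12.7 and 29.0 RPM in HET 1 to 3, the reverse. Pdgfra, the PDGF receptor of fibroblasts, had a mean of 0.335 RPM and was not tested.

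The ligands and regulators upstream of the markers did not pass either. Of 9 tested genes for PDGF ligands, receptors and adaptors, 4 had higher and 5 lower means in KO (median log2 difference -0.07), with 0 past the adjusted threshold. Between the code sides, 2 of the 9 were higher and 3 lower in the low codes, and 4 overlapped. Pdgfb encodes a ligand of PDGFR-beta. Its level was 6.68, 7.33 and 9.98 RPM in KO 1 to 3 and 5.46, 9.04 and 12.2 RPM in HET 1 to 3. Pdgfb was thus higher in every high-code library, as Pdgfrb was. Pdgfd, for another PDGF ligand, ran the other way, at 2.60 RPM or more in the low-code and 1.90 RPM or less in the high-code libraries. Of 16 tested TGF-beta and SRF regulators, 10 had higher and 6 lower means in KO (median 0.07) and 0 passed. Srf was at 142, 161 and 29.0 RPM in KO 1 to 3 and 192, 35.8 and 36.9 RPM in HET 1 to 3. It was thus higher in the low-code libraries, as Acta2 and Tagln were, but within each side every KO library was below the HET libraries for Srf and above them for Acta2 and Tagln. For Acta2 the high-code order rests on 17 reads in KO 3 and 17 in HET 2, and for Tagln the order on each side was within counting error. Tgfb3, a TGF-beta ligand, was at 2.47, 5.65 and 1.20 RPM in KO 1 to 3 and 3.46, 0.788 and 0.935 RPM in HET 1 to 3.

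The genes most like 4 of the markers were ranked by the root mean square difference between centred log2(RPM + 1) values over the 6 libraries. For Pdgfrb they were Glrx (0.108), Sel1l3 (0.118) and Acp5 (0.119). For Acta2 they were 6430511E19Rik (0.0732), Ephx2 (0.0852) and Cep162 (0.0889). For Dcn they were the laminin gene Lama3 (0.0838), Gm17024 (0.108) and D930015M05Rik (0.132), and for Vim they were Wwox (0.0605), Grk3 (0.0726) and Lpar2 (0.0749). None of these 12 genes belongs to any of the marker lists used here.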

How the data were processed

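The submitters' processing notes name HISAT2, DESeq2 and build GRCm38, without roles or versions; counting program, annotation and strand setting: not given in the sources used here. Deposited values are log2 RPM (reads scaled to the library total), 1 per gene and library. The authors entered 0.9 read where a gene had none, and these were set to 0; 100% of 93649 other values under 1000 reads lay within 0.01 of a whole read.

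Main test: limma 3.58.1 (R 4.3.3) with mean-variance trend and robust moderation on log2(RPM + 1), 3 KO against 3 HET libraries, genes averaging 1 RPM or more (14238), Benjamini-Hochberg adjustment, threshold 0.05. The log2(RPM + 1) scale understates changes of low genes. Each library has its own animal code; replicate numbers follow record order and pair nothing. Whether libraries come from separate preparations or days is not given. Fits were checked on simulated counts with large changes in better covered genes and no difference between code sides. That check does not show how the fits perform with the variation seen here.

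The 10 members, the lists and the division by animal code were chosen with earlier results of these data known. Named genes: all members, Abca12, the 2 lowest-p and 2 highest-mean genes of each other list, and the 3 most similar genes of 4 members; the text prints part of these. Notch3, Mylk, Kcnj8, Postn, Fn1, Pdgfra, Pdgfb and Tgfb3 were picked after their values were seen, as were Xist, Ddx3y and the genes at 0. Exon lengths and gene identifiers come from GENCODE M21, promoters from RefSeq (GRCm38.p6; 5 members matched). The M21 gene of Acta2 ends at 34255590, beyond the deposited position.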

Additional observations from a re-analysis of the deposited data

How the results depend on the processing

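Across 17 alternative fits (pseudocounts of 0.1 and 5, no filter, a 5 RPM filter, 3 other scalings, limma-voom, no robust moderation, the animal code side as a block, the acinar share as a covariate, and each library left out) 0 genes and 0 of the markers tested were called. The fit with no filter tested all 10 markers, the 5 RPM filter 3, the fits without KO 1 or KO 2 tested 8, and the others 9. Of 145 marker differences under alternatives, 140 kept their sign and 5 reversed, for Cspg4 and Dcn. With the code-side block Cspg4 was at 0.17 and Dcn at -0.26; leaving out 1 library gave -0.62 to 0.21 for Cspg4 and -0.17 to 0.97 for Dcn. The cause was not tested. The number of markers without overlap between KO and HET ran from 0 to 5 when 1 library was left out. Without KO 3, 5 of 9 tested markers had an unadjusted limma p under 0.05 (6.59% of genes); without HET 1, 2 of 9 did (12% of genes). The log2 ratio of the summed level, KO over HET, was 0.64 in RPM and ran from 0.39 to 0.86. The count of markers with KO above HET on both code sides, 4, was 3 when scaled to reads outside the acinar list, where Vim no longer qualified. It was 4 or 5 with KO 1, KO 2, HET 2 or HET 3 left out. Both code-side counts and their alternatives were chosen after seeing the data. The other scalings moved the median of all genes by less than 0.1 on the log2 scale. No paired analysis was possible because the labels give each animal its own code and no number shared between KO and HET. Acta2, Dcn, Lum and Des rest on at most 130 reads per library, which limits what a difference in them can show.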
